A study of Homo sapiens and Mus musculus with 8 samples.

Results

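The values of 10 genes in each of 2 cell lines were examined, picked by gene name as a set of surface markers: the leukocyte integrin chains CD11b (ITGAM), CD11c (ITGAX), CD11a (ITGAL) and CD18 (ITGB2), the myeloid surface proteins CD13 (ANPEP), G-CSF receptor (CSF3R), the F4/80 antigen (ADGRE1), M-CSF receptor (CSF1R) and CD14, and the transcription factor gene CEBPA. Of the 20 gene rows sought, 18 were found, 10 of 35141 genes in the human table and 8 of 22457 in the mouse table. Csf3r (ENSMUSG00000028859) and Cebpa (ENSMUSG00000034957) had no row in the mouse table and were not analysed here. Each of the 22457 mouse rows had a value above 0 in some library, so a missing row may stand for no reads, which cannot be told. K562 is a human CML cell line that carries BCR-ABL. BaF3-T315I is a murine hematopoietic line that received p210 BCR-ABL with the T315I mutation by a retroviral vector. This mutation makes the kinase resistant to imatinib. In each line 2 libraries of polyadenylated RNA came from control cultures and 2 from cells incubated with 2 μM of JOA for 48 h. JOA is Jiyuan oridonin A, a diterpenoid. What the control cells received beside medium is not given in the sources used here, and neither is whether the libraries came from separate cultures, so p-values measure the spread between these libraries, which may be technical. The methods state in general that experiments were repeated independently, but do not tie this to the sequencing.

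Myeloid cells are told apart by what they carry on their surface. CD11a, CD11b and CD11c are alpha chains that reach the surface only in a pair with the shared beta chain CD18, and the pairs bind ICAM proteins, complement fragments and fibrinogen. CD11b and CD13 mark granulocytes and monocytes, CD14 marks monocytes, F4/80 marks mouse macrophages, and the receptors for G-CSF and M-CSF pass on the signals for granulocyte and macrophage growth. PU.1, the product of SPI1, and C/EBP alpha, the product of CEBPA, are the transcription factors known to drive many of these genes, while GATA1 drives erythroid genes.

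In K562 cells the integrin genes ITGAM, ITGAX and ITGB2 and the CD13 gene ANPEP had values about 2 to 4 times as high with JOA as in the controls. The test described below called none of these K562 genes, nor any other gene of that table. ITGAL, CSF1R, CD14 and CEBPA overlapped between the K562 groups. In BaF3-T315I cells the genes of CD18 and F4/80 rose about 2.5-fold and 5.5-fold, and both were called. The main alpha chain was not the same in the lines. K562 cells held ITGAM and almost no ITGAL, and BaF3-T315I cells held Itgal and almost no Itgam. The values are FPKM, fragments scaled to exon length and to library depth, so that levels of different genes can be compared within a table but not between the tables. The test was limma, a moderated linear model, on log2(FPKM + 0.5), for genes whose 4 libraries averaged 0.5 FPKM or more. Calls needed an adjusted p under 0.05 (Benjamini-Hochberg, over all tested genes of the table) and a log2 fold change of 0.58 or more in size. In K562 cells 5 of the 10 genes passed that minimum, and in BaF3-T315I cells 3 of the 8 with a row. ITGAX and CSF3R had control means under the minimum and passed through their JOA libraries, so the number of tested genes that were higher is not a measure of how the 10 genes behaved.

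**Figure D1:**
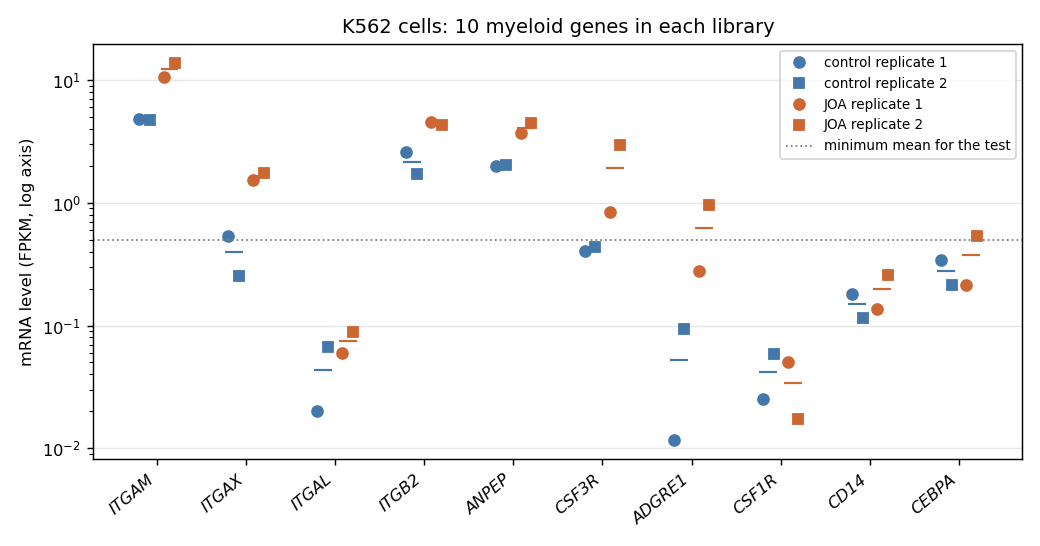
Level of each of the 10 genes in the 4 K562 libraries, in FPKM on a log axis, with 1 point per library and a short line at the mean of each pair. ITGAM, ITGAX, ITGB2, ANPEP, CSF3R and ADGRE1 have both JOA points above both control points, and the other 4 genes overlap.

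In K562 cells ITGAM (ENSG00000169896, chromosome 16 of GRCh38 from 31259967 to 31332892, plus strand), which encodes CD11b, had the highest level of the 10 genes in every library. It stood at 4.86 and 4.70 FPKM in the controls and at 10.7 and 13.9 FPKM with JOA. The libraries of a pair were close together and the pairs far apart. On average the controls held 4.78 ± 0.115 FPKM and the JOA libraries 12.3 ± 2.26 FPKM (SD, n = 2 each), which is 2.57 times as high. The log2 fold change was 1.26 (standard error 0.16, 95% interval 0.86 to 1.67, unadjusted p = 5.6e-04, adjusted p = 0.226 from limma). ITGAM ranked 119 of the 15635 tested genes by log2 fold change.

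ITGAX (ENSG00000140678, chromosome 16 from 31355134 to 31382997, plus strand) lies next to ITGAM and encodes CD11c, an alpha chain of dendritic cells and macrophages. Its level was 0.540 and 0.252 FPKM in the controls and 1.54 and 1.77 FPKM with JOA. Both JOA libraries were above both controls, and the controls were themselves apart. The mean in FPKM was 4.17 times as high with JOA, and the log2 fold change was 1.28 (standard error 0.25, unadjusted p = 0.0042, adjusted p = 0.236 from limma). The added 0.5 FPKM holds this estimate down, since weights on the recovered reads gave 2.15 and a pseudocount of 0.1 gave 1.88.

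The third alpha chain gene, ITGAL (ENSG00000005844, chromosome 16 from 30472658 to 30523185), encodes CD11a, which T cells use to hold on to target cells. It stood at 0.0199 and 0.0672 FPKM in the controls and at 0.0602 and 0.0888 FPKM with JOA. These values are 3 and 10 reads against 9 and 13, and the groups overlapped. The ratio of reads per depth was 1.71 with an exact binomial interval of 0.826 to 3.70, so a change was not detectable at this depth. Such intervals cover counting error only, since the reads carry no molecular identifiers and several may come from 1 molecule.

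ITGB2 (ENSG00000160255, chromosome 21 from 44885953 to 44931989, minus strand), the gene of the shared beta chain CD18, had 2.59 and 1.71 FPKM in the controls and 4.58 and 4.30 FPKM with JOA. The groups did not overlap. Control libraries averaged 2.15 ± 0.619 FPKM and JOA libraries 4.44 ± 0.201 FPKM (SD, n = 2 each), and the log2 fold change was 0.92 (standard error 0.20, unadjusted p = 0.0065, adjusted p = 0.236 from limma). An antisense gene, ITGB2-AS1, lies over it on the other strand. Both its JOA values were higher too, 0.634 and 0.571 FPKM in the controls and 1.44 and 1.09 FPKM with JOA. The library kit marks strand, but whether reads were counted by strand is not given in the sources used here, so reads of the pair cannot be told apart.

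Summed over the 3 alpha chains, the level was 5.42 and 5.02 FPKM in the K562 controls and 12.3 and 15.7 FPKM with JOA. CD11b made up between 87.0% and 93.6% of that sum in each library. Per unit of ITGB2 the alpha chains stood at 2.09 and 2.93 in the controls and at 2.68 and 3.66 with JOA, where the groups overlapped. The sum of the alpha chains and ITGB2 had both JOA values above both controls, and limma called none of these chains. A shift of the ratio between them was not seen beyond the spread between libraries.

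Of the genes that are not integrins, ANPEP (ENSG00000166825, chromosome 15 from 89784889 to 89815401, minus strand) encodes CD13, a peptidase that trims peptides at the cell surface. It had 1.99 and 2.03 FPKM in the controls and 3.74 and 4.49 FPKM with JOA. The controls were nearly equal, and both JOA libraries were well above them. In reads these values were 226 and 227 against 421 and 495, a ratio per depth of 2.05 with an exact binomial interval of 1.83 to 2.30. The log2 fold change was 0.87 (95% interval 0.49 to 1.26, unadjusted p = 0.0022, adjusted p = 0.226 from limma).

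CSF3R (ENSG00000119535, chromosome 1 from 36466043 to 36483278) encodes the receptor of G-CSF, the cytokine that drives granulocyte production. It was even in the controls, at 0.402 and 0.433 FPKM, and uneven with JOA, at 0.842 and 2.97 FPKM. JOA replicate 2 alone held 567 reads, against 164 in JOA replicate 1 and 79 and 84 in the controls. The log2 fold change of 1.23 had a 95% interval from -0.018 to 2.49 (unadjusted p = 0.052, adjusted p = 0.291 from limma). Leaving out JOA replicate 2 gave 0.55 and leaving out JOA replicate 1 gave 1.92, so its size rests on which of the JOA libraries is kept.

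ADGRE1 (ENSG00000174837, chromosome 19 from 6887566 to 6940459), the gene of the adhesion receptor known in the mouse as F4/80, had the same unevenness at a far lower level. It stood at 0.0116 and 0.0938 FPKM in the controls, which is 1 and 8 reads, and at 0.280 and 0.966 FPKM with JOA, which is 24 and 81 reads. Both JOA libraries were above both controls. The ratio of reads per depth was 11.8 with an exact binomial interval of 5.99 to 26.5, and its mean of 0.338 FPKM was under the minimum for the test. Without that minimum limma gave a log2 fold change of 0.96 (adjusted p = 0.464), on a scale that the added 0.5 FPKM compresses.

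The remaining genes of K562 cells were near the limit of detection. CSF1R (ENSG00000182578, chromosome 5 from 150053291 to 150113372), the M-CSF receptor gene, had 3 and 7 reads in the controls and 6 and 2 with JOA, at most 0.0591 FPKM. CD14 (ENSG00000170458, chromosome 5 from 140631728 to 140633701), whose product passes bacterial lipopolysaccharide to its receptor, had 8 and 5 reads in the controls and 6 and 11 with JOA, or 0.182, 0.115, 0.138 and 0.258 FPKM. CEBPA (ENSG00000245848, chromosome 19 from 33299934 to 33302564) had 21 and 13 reads against 13 and 32, or 0.343, 0.215, 0.214 and 0.538 FPKM. All 3 overlapped between the groups. Their ratios of reads per depth were 0.810 (exact binomial interval 0.278 to 2.28), 1.32 (0.606 to 2.96) and 1.34 (0.839 to 2.16), so changes within these bounds were not detectable at this depth.

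Counted together, limma called 0 of the 5 tested genes in K562 cells, where it called 0 of all 15635 genes, which is 0%. At an unadjusted p under 0.05 with the same fold threshold, 4 of the 5 were higher (ITGAM, ITGAX, ITGB2 and ANPEP). So were 5.38% of all genes tested (841 higher and 372 lower). This split moved to 1221 and 242 with TPM scaling and to 532 and 685 with median-ratio scaling. The methods of the study state these thresholds, but name TPM and no test, so its own calls were not repeated here. For each of the 5 tested genes both JOA values exceeded both control values, as they did for 36.8% of the genes tested. ITGAX and CSF3R passed the minimum mean only through their JOA libraries. Being higher was thus partly built into their selection, and neither count over the 5 measures how the 10 genes behaved. Among the 5 genes under the minimum mean this held for ADGRE1 alone, beside 21.5% of the 16063 genes under the minimum that had a value above 0. None of the 10 genes had both JOA libraries below both controls. The share of all K562 genes that did was not counted, so this count has nothing to be read against. With voom weights on recovered reads 3 genes of the table were called higher and 2 lower, and none of them was among the 5 (ITGAM had adjusted p = 0.0787 there, the smallest of the 5).

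The promoters of 7 of the 10 human genes were at hand, as 10 windows of 250 bases before and 50 after a RefSeq start site on GRCh38.p14. They are shown for 4 genes that span the range of the data. ITGAM was the highest of the 10 and higher with JOA. For ANPEP the upstream start is shown, the one that myeloid cells are known to use, 8224 bases from the other. ADGRE1 was low and higher with JOA. For CSF1R, which stayed near 0, the downstream start is shown, the one known from macrophages. Capitals mark exact matches, on either strand, to GAGGAA, the core of sites for PU.1, or to TTGCNNCAA. The latter was searched under the name of C/EBP but is not the established form of its site. The windows were therefore not searched for C/EBP sites.
ITGAM, chr16:31259725-31260024, plus strand: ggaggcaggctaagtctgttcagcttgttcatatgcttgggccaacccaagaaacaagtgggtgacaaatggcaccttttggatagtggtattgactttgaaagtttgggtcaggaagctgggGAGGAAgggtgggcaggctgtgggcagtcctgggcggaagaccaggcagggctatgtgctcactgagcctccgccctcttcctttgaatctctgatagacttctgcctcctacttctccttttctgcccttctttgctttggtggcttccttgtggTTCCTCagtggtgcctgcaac
ANPEP, chr15:89814803-89815102, minus strand: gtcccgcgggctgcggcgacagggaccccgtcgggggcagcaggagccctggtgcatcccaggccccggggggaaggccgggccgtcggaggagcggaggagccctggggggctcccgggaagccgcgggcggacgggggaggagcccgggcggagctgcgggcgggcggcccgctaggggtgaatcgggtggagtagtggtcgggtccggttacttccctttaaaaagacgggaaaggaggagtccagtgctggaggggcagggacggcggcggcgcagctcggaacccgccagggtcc
ADGRE1, chr19:6887329-6887628, plus strand: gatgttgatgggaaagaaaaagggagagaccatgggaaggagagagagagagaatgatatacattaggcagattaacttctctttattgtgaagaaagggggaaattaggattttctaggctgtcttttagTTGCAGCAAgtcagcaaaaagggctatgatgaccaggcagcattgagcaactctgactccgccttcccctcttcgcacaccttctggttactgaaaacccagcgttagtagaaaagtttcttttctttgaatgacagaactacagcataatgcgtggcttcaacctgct
CSF1R, chr5:150086505-150086804, minus strand: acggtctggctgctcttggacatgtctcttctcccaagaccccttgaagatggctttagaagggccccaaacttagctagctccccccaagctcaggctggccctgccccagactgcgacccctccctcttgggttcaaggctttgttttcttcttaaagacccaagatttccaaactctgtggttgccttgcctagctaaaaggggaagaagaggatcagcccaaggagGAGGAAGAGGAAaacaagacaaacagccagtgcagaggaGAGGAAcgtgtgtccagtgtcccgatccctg

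GAGGAA was found in 4 of the 10 windows, of ITGAM, CSF3R, CSF1R and CD14, and in 27.9% of all 35116 promoter windows. ITGAM has one match 127 bases before its start and one on the other strand after it. CSF1R has 3 matches, at 20 and 14 bases before the start and once after it, in the gene with the fewest reads of the 10. TTGCNNCAA was found in the ADGRE1 window alone, 119 bases before the start, where the letters match on both strands, and in 1.98% of all windows. The GATA motif AGATAA was in none of the 10 windows and in 10.3% of all. The ANPEP window holds no match to any of the 3. Such matches are letters in these windows and no evidence of binding. SPI1, the PU.1 gene, stood at 42.5 and 41.8 FPKM in the controls and at 42.2 and 50.9 FPKM with JOA, where the groups overlapped.

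**Figure D2:**
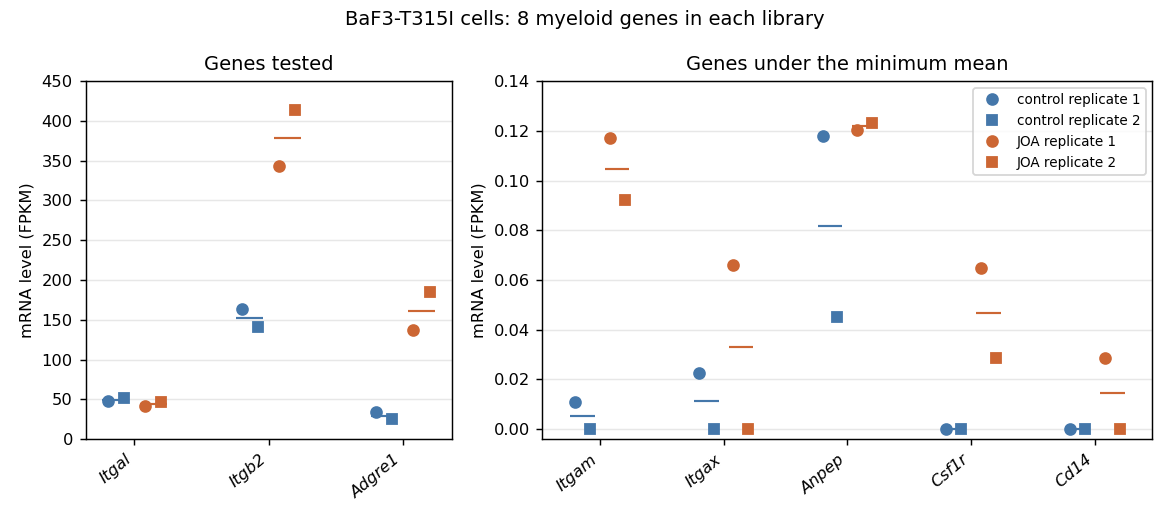
Level of the 8 genes with a row in the BaF3-T315I table, in FPKM on linear axes, with the 3 tested genes on the left and the 5 genes under the minimum mean on the right, 1 point per library and a short line at the mean of each pair. Itgb2 and Adgre1 are far higher in both JOA libraries, while Itgal lies slightly lower.

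In BaF3-T315I cells, Adgre1 (ENSMUSG00000004730), the F4/80 gene, had 33.5 and 25.3 FPKM in the controls and 138 and 185 FPKM with JOA. The groups were far apart. The mean rose from 29.4 ± 5.85 to 161 ± 33.6 FPKM (SD, n = 2 each), 5.49 times. The log2 fold change was 2.43 (standard error 0.21, 95% interval 1.90 to 2.97, adjusted p = 0.00688 from limma), which ranked 11 of the 12872 tested genes. By mean level over the 4 libraries it was at rank 472.

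Itgb2 (ENSMUSG00000000290), the CD18 gene, had 163 and 141 FPKM in the controls and 343 and 414 FPKM with JOA. It was the most abundant of the 8 genes, at rank 168 by mean level. It rose from 152 ± 15.9 FPKM on average to 378 ± 50.3 FPKM (SD, n = 2 each), and its log2 fold change was 1.31 (standard error 0.15, 95% interval 0.93 to 1.69, adjusted p = 0.00788 from limma). By log2 fold change it ranked 282.

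Itgal (ENSMUSG00000030830), the CD11a gene, had 47.6 and 51.2 FPKM in the controls and 41.9 and 46.3 FPKM with JOA. Both JOA libraries were lower, by little. The log2 fold change was -0.16 (95% interval -0.43 to 0.10, adjusted p = 0.269 from limma). After subtraction of the median over all tested genes it lay between -0.096 and -0.041 over the scalings tried. Itgal was the one alpha chain of the 3 with a substantial level, at 99.6% of their sum or more in each library. The sum of the alpha chains per unit of Itgb2 stood at 0.292 and 0.364 in the controls and at 0.123 and 0.112 with JOA. The JOA values of the ratio did not overlap with the control values and were lower, while in K562 cells they overlapped. Whether the ratio responded differently in the 2 lines was not tested.

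The other mouse genes were at the edge of detection. Exon lengths of the mouse genes were not used here, but the ratios between libraries, corrected for their relative depth, fall on whole numbers and give the smallest read numbers possible. Itgam (ENSMUSG00000030786) was listed at 0.0108 and 0 FPKM in the controls and at 0.117 and 0.0922 FPKM with JOA, in the proportion 1, 0, 13 and 10. If these were the reads, the JOA to control ratio per depth was 21.0 with an exact binomial interval of 3.41 to 866. Both JOA libraries were higher, at a level far under that of Itgal. Without the minimum mean limma gave Itgam a log2 fold change of 0.26 (unadjusted p = 0.011, adjusted p = 0.0688).

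Itgax (ENSMUSG00000030789) was found in control replicate 1 and JOA replicate 1 only, at 0.0226 and 0.0660 FPKM, in the proportion 2 to 7. Csf1r (ENSMUSG00000024621) was listed at 0 in both controls and at 0.0649 and 0.0284 FPKM with JOA, in the proportion 7 to 3. Cd14 (ENSMUSG00000051439) was listed at 0 except for 0.0288 FPKM in JOA replicate 1. Anpep (ENSMUSG00000039062) had 0.118 and 0.0450 FPKM in the controls and 0.120 and 0.123 FPKM with JOA, in the proportion 9, 4, 11 and 11, and its ratio per depth of 1.55 had an interval from 0.745 to 3.34 if these were the reads. None of the 4 was above 0.13 FPKM in any library.

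Of the 3 tested genes in BaF3-T315I cells limma called 2 higher and 0 lower, where it called 9.38% of all genes tested higher and 15.2% lower (1207 and 1961 genes, or 1581 and 1504 with median-ratio scaling). Itgb2 and Adgre1 had both JOA values above both control values, as had 28.5% of the genes tested, and Itgal had them below, as had 44.5%. Among the 5 genes under the minimum mean they lay above for Itgam, Anpep and Csf1r, where 11.9% of such genes did. The calls of Itgb2 and Adgre1 held with JOA replicate 1 or 2 left out. They were lost without control replicate 1 (adjusted p = 0.0541 and 0.0506 from limma) and without control replicate 2 (adjusted p = 0.0885 and 0.0878). The log2 fold changes were then 1.42 and 1.21 for Itgb2 and 2.63 and 2.23 for Adgre1.

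**Figure D3:**
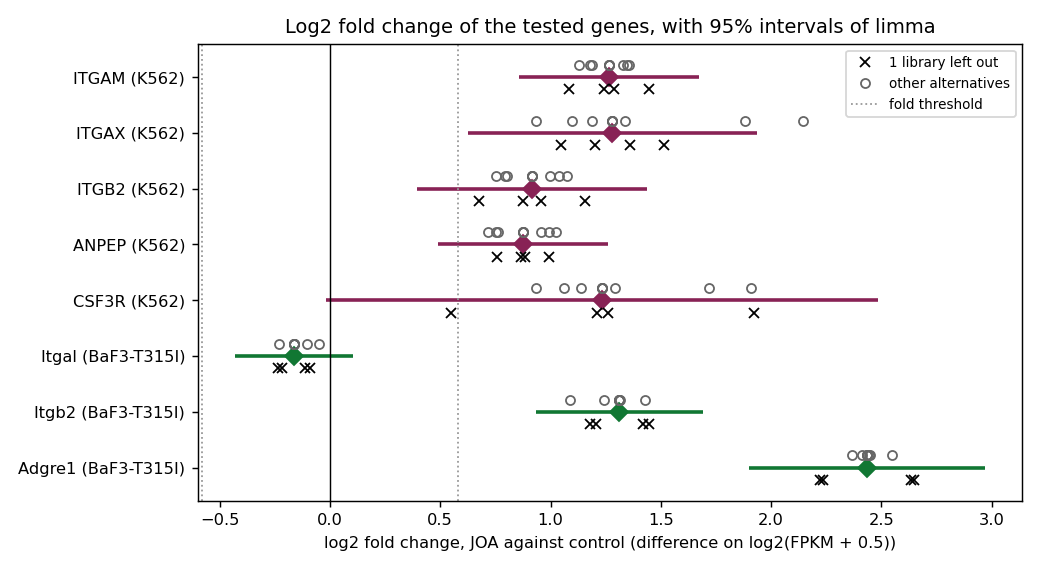
Log2 fold change of the 8 tested genes, on the log2(FPKM + 0.5) scale, as diamonds with the 95% interval of limma, with crosses for fits without 1 library and open circles for the other alternatives. No value turns its sign, and CSF3R moves the most when a library is left out, from 0.55 to 1.92.

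Side by side, the CD18 gene had a log2 fold change of 0.92 in K562 cells, which limma did not call (adjusted p = 0.236), and of 1.31 in BaF3-T315I cells, which it did (adjusted p = 0.00788). The F4/80 gene had both JOA values above both controls in each line, from a trace under the minimum mean in K562 cells and from a high level in BaF3-T315I cells. CD11b had its high level in K562 cells and a trace in BaF3-T315I cells, and both JOA libraries were above both controls in each. CD14 was near 0 in both lines. The tables were made separately and the lines are of different species, so the size of the responses was not compared by a test.

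The alpha D chain gene ITGAD, which lies next to ITGAX, was under the minimum mean in K562 cells, at 0.146 and 0.138 FPKM in the controls and 0.177 and 0.281 FPKM with JOA. Both JOA values were higher, at a trace level. The beta 7 chain gene ITGB7, also under the minimum, went the other way, with 0.402 and 0.359 FPKM in the controls and 0.155 and 0.178 FPKM with JOA.

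Other genes of granulocytes and monocytes were taken from lists in K562 cells. limma called 0 genes on any list, which is also the count over the whole table, so the lists are described by counts at an unadjusted p under 0.05 with the fold threshold. Of all genes tested, 5.38% were higher and 2.38% lower by that rule, which are the shares to read each list's count against. Of 35 granulocyte and monocyte genes 34 had a row and 12 were tested, of which 2 were higher at that p and 0 lower, with a median log2 fold change of 0.32 where all genes tested had 0.096. AZU1, which encodes the neutrophil granule protein azurocidin, had 5.08 and 6.90 FPKM in the controls and 11.7 and 28.3 FPKM with JOA, a log2 fold change of 1.55 (unadjusted p = 0.017, adjusted p = 0.253 from limma). Like CSF3R and ADGRE1 it was highest in JOA replicate 2.

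LY96, which encodes the partner of the lipopolysaccharide receptor TLR4, had 1.202 and 1.933 FPKM in the controls and 4.49 and 4.81 FPKM with JOA, a log2 fold change of 1.34 (unadjusted p = 0.0017, adjusted p = 0.226 from limma). NCF4, a subunit of the phagocyte oxidase, had 0.2197 and 0.4201 FPKM against 0.689 and 1.06 FPKM, and passed the minimum only through its JOA libraries. The membrane subunit gene CYBA was the most abundant of the list, where control libraries averaged 78.8 ± 3.99 FPKM and JOA libraries 74.2 ± 5.55 FPKM (SD, n = 2 each). The monocyte genes S100A12 and FCN1 were at 0 in every library, and the other genes with a row and no test were under the minimum mean. Of all genes under the minimum with a value above 0, 21.5% had both JOA values above both controls. The share that had them below was not counted. Of the 22 list genes under the minimum, counting S100A12 and FCN1, 3 had both JOA values above both controls (CD163, TLR4 and CAMP) and 3 had them below. Those below were LTF, the lactoferrin gene, with 0.202 and 0.195 FPKM in the controls and 0.0815 and 0.0833 FPKM with JOA, S100A8 and MNDA.

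Of 15 myeloid transcription factor genes 11 were tested, 1 of which was higher and 1 lower at that p, with a median log2 fold change of 0.044. The higher one was GFI1, a repressor needed for neutrophils, with 0.455 and 1.04 FPKM in the controls and 1.55 and 2.02 FPKM with JOA. The lower one was EGR1, an immediate early factor known to favor macrophages, with 25.0 and 46.8 FPKM against 13.3 and 14.8 FPKM. MYB, a factor of immature blood cells, had a log2 fold change of 0.54, and GATA1, the most abundant of the list, one of -0.30 (adjusted p = 0.236 and 0.295 from limma).

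Among 24 other integrin chains, ligands and activators, 16 were tested, 2 of which were higher at that p and 0 lower (median log2 fold change 0.19). They were FYB1, an adapter that works on integrin activation in T cells and platelets, with a log2 fold change of 2.18, and RASGRP2, which switches on the small GTPase RAP1 ahead of integrin activation, with 3.10 and 3.81 FPKM in the controls and 5.24 and 7.70 FPKM with JOA. ICAM1, a ligand of the CD18 integrins, had 9.28 and 9.32 FPKM against 11.8 and 14.7 FPKM. FERMT3, whose product binds the tails of beta chains in blood cells, was the most abundant, at 73.4 ± 1.62 and 65.6 ± 1.37 FPKM (SD, n = 2 each). Of 11 cytokine receptors and ligands of the myeloid line 6 were tested and 0 passed in either direction (median log2 fold change 0.18). CSF2RB, the chain shared by the receptors of GM-CSF and interleukin 3, had a log2 fold change of 0.57. IL6ST, the signal chain of the interleukin 6 receptor family, had 0.54, and IL6R, its partner for interleukin 6, had 0.19.

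Markers of other cells are given beside these values, and limma called none of them. Of 15 erythroid genes, the defining markers of this line, 14 were tested, and 11 were lower and 0 higher at that p, with a median log2 fold change of -1.03. AHSP, among the 11, averaged 0.077 FPKM with JOA and passed the minimum only through its controls. The summed level of the 15 erythroid genes was 5322 and 4981 FPKM in the controls and 2597 and 1746 FPKM with JOA. The embryonic globin gene HBE1 averaged 3346 FPKM in the controls and 1359 FPKM under JOA (adjusted p = 0.227 from limma). Of 10 megakaryocyte genes 4 were tested and 2 were lower, TUBB1 and NFE2, and VWF was at 0. Of 12 lymphocyte genes 3 were tested and NKG7 was higher, while CD8A and MS4A1 were at 0, and of 7 mast cell and basophil genes 2 were tested and none passed. Of the 8 mitochondrially encoded genes, listed as a sign of RNA quality, 4 were lower (median -0.54, sum 50090 and 54890 FPKM against 41100 and 37050 FPKM), and of the 7 immediate early genes JUNB and EGR1 were lower. The part of these in the values of the integrin and myeloid genes was not tested. In bulk RNA, more cells that express a gene and more RNA per cell cannot be told apart.

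The number of reads behind the values differed widely between the genes. The K562 libraries held between 22625603 and 23292640 reads by a depth inferred from the FPKM values. The tested genes among the 10 rested on 41 to 1777 reads per library, while ITGAL, CSF1R and CD14 rested on 2 to 13. Relative to control replicate 1 the other BaF3-T315I libraries were 1.16 to 1.198 times as deep, which was also inferred from FPKM values.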

How the data were processed

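The mRNA of K562 and BaF3-T315I cells was sequenced in 2 control and 2 JOA libraries each. The deposited values are FPKM, computed by the authors. Libraries were made with a stranded TruSeq mRNA kit, and Trimmomatic, HISAT2, Cufflinks and HTSeq and the builds hg38 and mm10 are named in the submitters' processing notes without roles or versions. The paper's methods name TPM, but the columns sum to between 279624 and 348007. Symbols came from a table of gene names (98.9% of 35141 human genes), places and exon lengths from GENCODE 29. K562 reads were recovered as FPKM multiplied by exon length and depth. The depth of each library was itself inferred, from the most common smallest step of FPKM multiplied by exon length. Of genes under 1000 reads, 96.2% to 96.3% per library came out whole within 0.05. ITGAM needed an exon length of 5665 in place of 5688 bases, the only length within 30% that gave whole reads. Mouse names are those of the gene list used, and other mouse genes were not named.

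Each line was fitted alone with limma 3.58.1 (R 4.3.3, variance trend, no covariate), on log2(FPKM + 0.5) with no further scaling and genes of a mean of at least 0.5 FPKM. The code of the fit was run on simulated normal values with known changes, in which the spreads were shuffled across genes. That removes the link of spread and level, so it does not tell how many true changes the fit would call here. Counts and figures were made with Python 3.11.15, pandas 2.3.3, scipy 1.17.1 and matplotlib 3.10.9. With 2 libraries against 2, no exact test over samples can pass the threshold, so none was used. The alternatives were other pseudocounts (0.1 and 1), filters, scalings, a replicate block, no variance trend, voom weights, an unadjusted p and each library left out. All 20 genes were named. From each list were named up to 3 genes with the largest change among those whose groups do not overlap, and the most abundant. SPI1, ITGAD, ITGB7, the genes under the minimum mean and the markers of other cells named were chosen after their values were seen. Other genes near the CD11 cluster are not reported here. The genes and lists were chosen with earlier results of these data known, so patterns among them are no independent evidence.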

Additional observations from a re-analysis of the deposited data

How the results depend on the processing

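The log2 fold changes of the 8 tested genes kept their sign under every alternative, 14 for K562 and 13 for BaF3-T315I. In K562 cells 0 of the 5 tested genes were called under any of the fits, with limma or with voom weights. At an unadjusted p under 0.05 with the fold threshold, 4 were higher and 0 lower, counting ITGAX, which passed the minimum mean only through its JOA libraries. Their adjusted p ran from 0.0787 to 0.827 over the fits. Without 1 library the log2 fold change ran from 1.08 to 1.44 for ITGAM, 1.05 to 1.51 for ITGAX, 0.68 to 1.16 for ITGB2, 0.76 to 0.99 for ANPEP and 0.55 to 1.92 for CSF3R. In BaF3-T315I cells the number of genes called higher was 0 to 2 with 1 library left out and 2 under every other alternative. It was 0 without control replicate 1 or 2, when limma called 96 and 0 genes of the whole table higher and 1465 and 1166 passed an unadjusted p under 0.05 with the fold threshold. Without JOA replicate 2 the table had 762 genes called higher in place of 1207. Without 1 library Itgb2 ran from 1.18 to 1.45, Adgre1 from 2.22 to 2.65 and Itgal from -0.23 to -0.093.

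The scalings moved the median log2 fold change of all tested genes between -0.029 and 0.18 for K562 and between -0.17 and -0.0062 for BaF3-T315I. Relative to that median ITGAM lay between 1.16 and 1.18, ITGB2 between 0.75 and 0.82, ANPEP between 0.71 and 0.78, Itgb2 between 1.10 and 1.44 and Adgre1 between 2.45 and 2.56. With the replicate block, in which libraries of the same number share a term, limma called 0 genes of the 5 in K562 cells (adjusted p = 0.0902 for ITGAM, ITGB2 and ANPEP) and 2 of the 3 in BaF3-T315I cells. The numbers are no pairing in the labels, and the deviations of same-numbered libraries correlated across genes at 0.188 and 0.012.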
